A study of Mus musculus with 9 samples.

Results

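The genes described here encode the working parts of the lysosome: its hydrolases, its membrane proteins, the proton pump that acidifies it, the machinery that sorts enzymes to it and 3 transcription factors that control its genes. They were taken from the authors' table as protein-coding rows annotated with the KEGG lysosome pathway, together with every symbol that begins with Atp6v and with Mcoln1, Tfeb, Tfe3 and Mitf. A row was read as protein-coding when that type stood among its listed transcript types, since only 24 of these genes carried it as the sole entry. The rule gave 137 of 55385 genes, and no measured value entered it. RNA was sequenced from MCP5, a mouse podocyte line labelled wild type, in 3 groups of 3 libraries: high glucose (50 mmol/L), advanced glycation end products (AGEs, 400 µg/mL) and an untreated control. Podocytes are the epithelial cells that wrap the glomerular capillaries of the kidney, and AGEs form when reducing sugars react with proteins. The length of treatment is not given in the labels, and osmotic and carrier controls were not analysed here. The titles do not say that libraries came from separate cultures, so p-values reflect only library-to-library spread, part of which may be technical.

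Lysosomes break down proteins, glycans, lipids and nucleic acids with acid hydrolases. Most of these enzymes receive a mannose 6-phosphate tag in the Golgi, are bound there by receptors and travel in vesicles coated by clathrin and adaptor complexes. The acid interior is made by the V-ATPase, a proton pump whose cytosolic V1 sector hydrolyses ATP and whose V0 sector lies in the membrane and passes protons. TFEB, TFE3 and MITF are related transcription factors that bind the CLEAR motif in lysosomal promoters, and the kinase complex mTORC1 keeps TFEB in the cytosol by phosphorylating it. Podocytes, which are long-lived and rarely divide, are known to depend on autophagy and lysosomal degradation.

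Total counts lay between 46284878 and 77242281 per library. Chi-square per degree of freedom between replicate libraries was 44.1 to 101, beyond sampling noise, and the 2 highest values were those of AGEs library 3 against the other AGEs libraries. The counts, medians and main genes of the AGEs comparisons are therefore also given without that library. The labelled cell type was only partly borne out by its markers: of 13 podocyte genes, Wt1 and Ptpro reached at most 0.217 and 0.0628 CPM, and Podxl, Cd2ap and Synpo were expressed. Markers of other cells moved with high glucose. Summed over 12 macrophage genes the level was 128 to 142 CPM in high glucose and 58.9 to 64.4 CPM in control, through Cd14 and Csf1r. These 2 were called and the other 7 tested were not, though all 9 had a log2 fold change above 0 (median 1.89). In AGEs over control the median of this list was also above 0, at 0.98, and 0 were called. Ptprc, not called, had 0.808, 1.22 and 0.907 CPM in high glucose and 0, 0.0581 and 0.402 CPM in control, also without overlap. Adgre1 lay at or below 0.256 CPM and C1qa, C1qb and C1qc at or below 0.189 CPM in all libraries. Over 8 tubule genes the sum was 667 to 800 CPM in high glucose and 202 to 216 CPM in control, through Aqp1, Cdh16, Lrp2 and Cubn, with Umod, Slc34a1 and Aqp2 at 0. Their part in the results was not tested.

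Of the 137 genes, 123 had enough counts to be tested and 14 did not. Among the untested were Ctse, Ctsf, Ctsg, Ctsj and Ctsm, the dendritic cell protein Lamp3, and the tissue-restricted pump subunits Atp6v0d2, Atp6v1b1, Atp6v1e2 and Atp6v1g3. None of the 14 exceeded 15 counts in a library and 7 had 0 counts throughout. Atp6v1fnb, also untested, matched by its name alone and was not counted as a pump subunit. By FPKM, which is scaled to length and so allows genes to be compared, the most abundant in control cells were the tetraspanin Cd63 (321 ± 7.90), the membrane glycoprotein Lamp1 (301 ± 9.87), the sphingolipid activator precursor Psap (293 ± 13.8) and the aspartic protease Ctsd (258 ± 16.2; mean ± SD, n = 3 each). In high glucose the order was Psap (374 ± 16.5), Ctsd (280 ± 21.2), Lamp1 (244 ± 10.8) and Cd63 (190 ± 13.9), so that Cd63 was the fourth of these in place of the first. The SDs of Lamp1 and Psap overlapped in control. Together the 137 genes took 1.50 ± 0.011% of all counts in high glucose, 1.45 ± 0.032% in AGEs and 1.50 ± 0.024% in control.

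The first comparison asked which lysosomal genes differed in high glucose. Of the 10 tested subunits of the pump's cytosolic V1 sector 8 fell and 0 rose. Mcoln1, Cd63, Cd68 and Lamp1 fell among membrane proteins, and the transcription factor Tfeb, the sulfatase Galns and 7 of 16 glycosidases rose. Hydrolases, membrane proteins and sorting genes, each taken whole, had between 20% and 27.3% of their tested genes called in each direction. Differences between roles were not tested. Levels are given below as CPM (counts scaled to library size with TMM factors), and a gene was called at a Benjamini-Hochberg adjusted p under 0.05 in edgeR's quasi-likelihood test over 17680 genes. In high glucose 25 of the 123 tested genes rose and 37 fell, which is 20.3% and 30.1%, while 19.6% of all genes tested rose and 19.7% fell (39.3% either way). The median log2 fold change of the 123 was −0.057, beside 0.029 for all genes. In bulk RNA such as this, fewer cells that express a gene and less of its RNA per cell cannot be told apart.

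The split depended on the scale. Under limma, fitted to log2(FPKM + 1), 38 were higher and 25 lower, beside 29.6% and 14.2% of all genes. Among those called, 60.3% were higher against 40.3% by edgeR, and all genes moved the same way, with 67.5% higher against 49.9%. On that scale the median of all genes was 0.099, and 0.16 with a pseudocount of 0.1, so small changes are relative to this shift. By role, limma on log2(FPKM + 1) called 35.7% of hydrolases higher and 11.9% lower. For membrane proteins these shares were 33.3% and 19%, for sorting genes 34.5% and 10.3%, and for the pump 15% and 55%. All 62 called genes had CPM values that did not overlap between high glucose and control. In all, 30 of the 123 were higher and 47 lower without overlap, against 28.3% and 25.8% of all genes tested. Of these, 8 moved by 2-fold or more, 3 higher (Atp6v0a4, Tfeb and Galns) and 5 lower, among them Mcoln1, Cd68, Ctns and Ap1g2. Among all genes 8.38% were called at least 2-fold higher and 5.3% at least 2-fold lower.

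**Figure D1:**
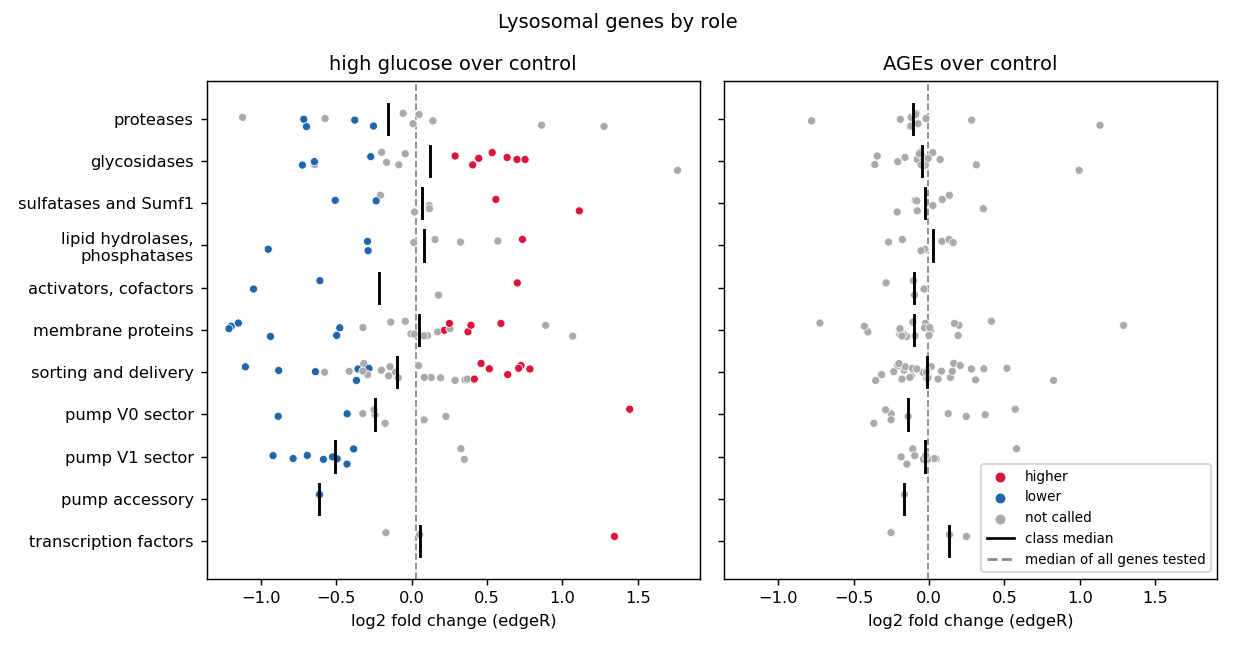
Log2 fold change of each tested lysosomal gene by role, high glucose over control (left) and AGEs over control (right); each point is 1 gene, the black bar is the class median and the dashed line the median of all genes tested. In the left panel the V1 sector of the pump is shifted to the left (median −0.51) while hydrolases and membrane proteins lie on both sides of 0; in the right panel no gene was called.

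Of the pump, 20 of 24 subunits were tested, and 1 rose and 11 fell in high glucose and their median was −0.41. Of the 11 that fell, 8 belong to the V1 sector, where 10 of 13 subunits were tested. These 8 were all the V1 subunits that reached a mean of 1 FPKM in control. Atp6v1g1, a subunit of the peripheral stalk, had 146, 155 and 146 CPM in the high glucose libraries, against 284, 265 and 296 CPM in control. This is a 1.89-fold fall (log2 fold change −0.92, SE 0.06, adjusted p = 8.96e-06), with no overlap between the groups. Atp6v1c1, which joins the stalks to V0, had 136, 123 and 117 CPM in high glucose, against 223, 223 and 202 CPM in control (log2 fold change −0.79, SE 0.08, adjusted p = 6.64e-05). Atp6v1h, the regulatory subunit, had 82.7, 82.3 and 76.2 CPM in high glucose and 131, 133 and 126 CPM in control.

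The catalytic subunit Atp6v1a, which holds the site of ATP hydrolysis, had 176, 164 and 183 CPM in high glucose and 261, 259 and 216 CPM in control (log2 fold change −0.49, adjusted p = 0.00156). Its partner in the catalytic ring, Atp6v1b2, had 136, 131 and 122 CPM in high glucose and 167, 168 and 172 CPM in control (log2 fold change −0.39, adjusted p = 0.00128). This was the smallest fall of the 8. Atp6v1d, of the central rotor, fell by 0.59 on the log2 scale, Atp6v1e1 of the stalk by 0.52 and Atp6v1f of the rotor by 0.43, each without overlap. The summed level of the V1 sector was 1076, 1045 and 1021 CPM in high glucose, 1546, 1558 and 1465 CPM in AGEs and 1606, 1576 and 1579 CPM in control. The remaining tested isoforms, Atp6v1c2 and Atp6v1g2, were low (at most 3.51 and 1.77 CPM) and were not called, and each overlaps an exon of a more abundant gene, Pdia6 and Nfkbil1. The same 8 subunits were called lower under every one of the 18 alternative settings, the FPKM scale included.

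Of 9 tested V0 subunits 2 fell, 1 rose and 6 were not called. With limma on FPKM 3 were higher and 1 or 2 lower. Atp6v0b, a subunit of the proton-conducting ring, had 70.4, 60.4 and 62.6 CPM in high glucose, against 114, 106 and 138 CPM in control (log2 fold change −0.89, SE 0.11, adjusted p = 0.000254). Atp6v0d1, which couples the ring to the V1 rotor, had 89.2, 94.9 and 79.0 CPM in high glucose and 118, 108 and 128 CPM in control (log2 fold change −0.43, adjusted p = 0.00465). Its call was missed with limma on log2(FPKM + 1) without a filter on low values (adjusted p = 0.0532). The most abundant ring subunit, Atp6v0c, varied within groups, with 310, 238 and 392 CPM in high glucose and 324, 294 and 443 CPM in control, and was not called. Atp6v0e, a small membrane subunit, was at 0.083 on the log2 scale (adjusted p = 0.397) and Atp6v0e2 at −0.25 (adjusted p = 0.055). Both passed under some alternatives, with lowest adjusted p over the settings of 0.0061 for Atp6v0e and 0.034 for Atp6v0e2.

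The large V0 subunit a, which lines the proton path, has 4 isoforms, of which 1 was called. Atp6v0a4, known from kidney intercalated cells, had 10.9, 10.2 and 10.9 CPM in high glucose, against 3.27, 4.18 and 4.26 CPM in control. It was 2.73-fold higher (log2 fold change 1.45, SE 0.23, adjusted p = 0.000947), and shares part of an exon with D630045J12Rik on the same strand. By FPKM it stayed below its relatives even in high glucose, at 2.09 ± 0.065 beside 8.35 ± 0.463 for Atp6v0a1, 9.95 ± 2.98 for Atp6v0a2 and 12.3 ± 0.258 for Tcirg1 (mean ± SD, n = 3). None of these relatives was called in the main fit (adjusted p = 0.0784 for Atp6v0a1, 0.345 for Atp6v0a2 and 0.107 for Tcirg1). Some alternatives did call Atp6v0a1 (lowest adjusted p over the settings 0.028) and Tcirg1 (0.0068, log2 fold change up to 0.40). The accessory protein Atp6ap1, needed for assembly of the pump, fell by 0.61 on the log2 scale (adjusted p = 0.000364).

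**Figure D2:**
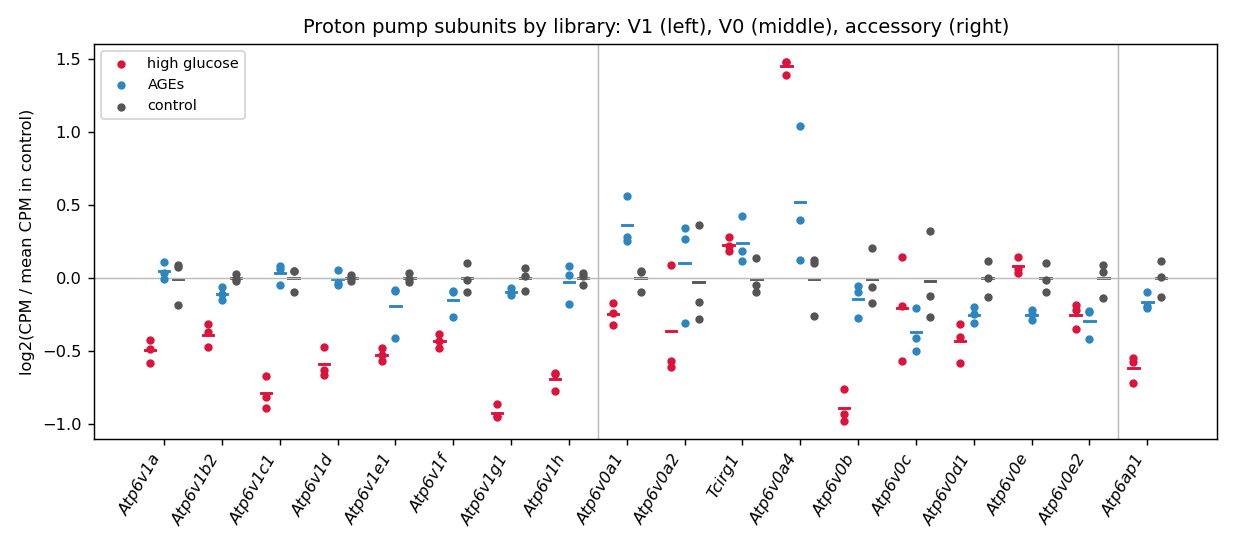
Level of each pump subunit in each library as log2 of its CPM over the mean CPM in control; points are libraries and bars the mean of the log2 values of 3 libraries, with V1 at the left, V0 in the middle and Atp6ap1 at the right. The high glucose points of all 8 V1 subunits lie below every AGEs and control point of that subunit, whereas in V0 this holds for Atp6v0a1 (not called), Atp6v0b and Atp6v0d1, and Atp6v0a4 goes up.

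Hydrolases were mixed, with 10 of 44 higher, 12 lower and a median of 0.011. By kind of enzyme, 7 of 16 glycosidases rose and 3 fell, and 0 of 12 proteases rose and 4 fell. The difference between the kinds was not tested. With limma on FPKM the glycosidases had 7 higher and 2 lower and the proteases 1 higher and 1 lower, so the protease count does not hold on that scale. Manba, the β-mannosidase, had 87.3, 76.7 and 80.5 CPM in high glucose, against 50.4, 49.4 and 45.4 CPM in control (log2 fold change 0.75, SE 0.09, adjusted p = 0.00015). Fuca1, an α-L-fucosidase, had 94.5, 83.4 and 82.8 CPM in high glucose and 53.1, 54.3 and 53.2 CPM in control (log2 fold change 0.70). Glb1, the β-galactosidase, had 48.3, 47.1 and 41.0 CPM in high glucose and 29.8, 28.3 and 29.8 CPM in control (log2 fold change 0.63, adjusted p = 0.00078). In each of these the groups were apart. Gla, Galc, Gusb and Naglu rose by 0.29 to 0.53 on the log2 scale.

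Against this run, 3 glycosidases fell. Among them Gaa, the acid α-glucosidase that degrades glycogen, had 166, 161 and 159 CPM in high glucose and 193, 182 and 212 CPM in control (log2 fold change −0.27, adjusted p = 0.0116). The call for Gaa was lost on the FPKM scale (adjusted p up to 0.278).

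Hexa, which takes part in ganglioside degradation, was almost absent: it had 0.386, 0.690 and 0.227 CPM in high glucose, 0.367, 0.391 and 0 CPM in AGEs and 0.0628, 0 and 0.319 CPM in control. Gm2a, a lipid-binding activator of ganglioside degradation, rose: it had 53.2, 52.8 and 48.3 CPM in high glucose, against 31.0, 30.1 and 33.8 CPM in control (log2 fold change 0.70, SE 0.09, adjusted p = 0.000203).

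Among proteases Ctsa, a serine carboxypeptidase that also protects β-galactosidase, had 265, 233 and 223 CPM in high glucose, against 399, 361 and 411 CPM in control (log2 fold change −0.70, SE 0.09, adjusted p = 0.000246). Ctsl, a cysteine protease, had 545, 491 and 516 CPM in high glucose and 672, 656 and 688 CPM in control (log2 fold change −0.38, adjusted p = 0.00799). The asparagine-specific protease Lgmn fell by 0.25 and the cysteine protease Ctso by 0.72 on the log2 scale. The calls for Ctsl, Lgmn and Ctso were missed on the FPKM scale, with adjusted p up to 0.150, 0.271 and 0.134, and that for Ctso also without control library 1 or 2 or high glucose library 2 or 3. The most abundant proteases were not called in the main fit: Ctsd had 715, 697 and 609 CPM in high glucose and 713, 646 and 742 CPM in control, and Ctsb had 635, 631 and 600 CPM in high glucose and 620, 592 and 642 CPM in control. Ctsb did pass under an alternative setting (lowest adjusted p over the settings 0.016).

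Sulfatases split evenly, with 2 of 8 higher and 2 lower, the enzyme that activates them included. Galns, which removes sulfate from keratan and chondroitin sulfate, had 67.2, 58.2 and 66.1 CPM in high glucose, against 25.8, 29.5 and 33.3 CPM in control. It was 2.16-fold higher (log2 fold change 1.11, SE 0.15, adjusted p = 0.00029). Arsb, which acts on dermatan and chondroitin sulfate, had 114, 104 and 104 CPM in high glucose and 75.2, 70.4 and 73.0 CPM in control (log2 fold change 0.56). Sumf1, the enzyme that activates sulfatases in the endoplasmic reticulum, fell by 0.24, a call lost in 10 of the 18 alternatives, among them the replicate block, each of the 3 fits without a control library and those without high glucose library 2 or 3 (adjusted p up to 0.466).

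Of 8 lipid hydrolases and phosphatases 1 rose and 3 fell. With limma on log2(FPKM + 1) 5 were higher and 1 lower, and without a filter on low values 4 were higher and 1 lower. The direction of these counts thus depended on the scale. Acp2, the lysosomal acid phosphatase, had 35.9, 34.6 and 35.1 CPM in high glucose, against 70.1, 63.1 and 71.1 CPM in control (log2 fold change −0.95, SE 0.13, adjusted p = 0.000316). It overlaps Ddb2 on the opposite strand over 12.6% of its exon bases. Pla2g15, a lysosomal phospholipase, had 14.0, 15.1 and 12.6 CPM in high glucose and 7.66, 7.69 and 9.67 CPM in control (log2 fold change 0.74, adjusted p = 0.00292). The acid lipase Lipa and the acid ceramidase Asah1 each fell by 0.29, and both calls were lost on the FPKM scale (adjusted p up to 0.242 and 0.443), that for Asah1 also without control library 2 or 3 or high glucose library 2 or 3. Npc2, the luminal cholesterol carrier, fell by 0.61 (adjusted p = 0.001), and Psap was not called, at 0.18 (adjusted p = 0.0642). Psap did pass under some alternatives (lowest adjusted p over the settings 0.0022, log2 fold change up to 0.35).

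Of the 22 membrane proteins tested 5 were higher and 6 lower, around a median of 0.049. Mcoln1, the calcium channel TRPML1 of the lysosomal membrane, lies on chromosome 8 at 3500457 to 3515232 (GRCm38, plus strand). It had 60.2, 55.9 and 56.8 CPM in high glucose, against 128, 134 and 139 CPM in control. The fall was 2.32-fold, at a log2 fold change of −1.21 (SE 0.07) and with the smallest adjusted p of all 123 genes (4.43e-06). Cd63, a tetraspanin of late endosomes and exosomes (chromosome 10, 128900989 to 128912822, plus strand), had 726, 761 and 657 CPM in high glucose, against 1347, 1345 and 1411 CPM in control (log2 fold change −0.94, SE 0.07, adjusted p = 9.77e-06). Both genes kept their call and direction under all alternatives.

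Lamp1 and Lamp2 are the main glycoproteins of the lysosomal membrane. Lamp1 had 711, 662 and 633 CPM in high glucose and 902, 927 and 962 CPM in control (log2 fold change −0.48, adjusted p = 0.000378). Lamp2 had 315, 274 and 309 CPM in high glucose and 291, 289 and 255 CPM in control, and was not called (log2 fold change 0.10, adjusted p = 0.341). An alternative setting did call it higher (lowest adjusted p over the settings 0.017, log2 fold change up to 0.28). The difference between the 2 genes was itself not tested. Cd68, a glycoprotein abundant in macrophage lysosomes, had 8.81, 10.9 and 8.48 CPM in high glucose, against 21.5, 23.2 and 19.9 CPM in control (log2 fold change −1.20, SE 0.25, adjusted p = 0.00419). Of the 9 tested genes of the macrophage list, Cd14 and Csf1r were called higher in high glucose and 7 were not called. The relation of these genes to Cd68 was not tested.

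Ctns, the cystine exporter, had 29.3, 27.8 and 27.6 CPM in high glucose, against 61.4, 62.4 and 64.1 CPM in control (log2 fold change −1.15, SE 0.38, adjusted p = 0.0379). Although the groups were far apart, its call was lost in 9 alternatives (adjusted p up to 0.149): the 3 fits on the FPKM scale and every fit without a control or high glucose library. In the AGEs group, which shares in the estimate of the spread, Ctns had 52.3, 47.7 and 13.8 CPM. Npc1, the membrane cholesterol transporter, fell by 0.50, a call lost on the FPKM scale (adjusted p up to 0.118), and its exons overlap those of Rmc1 on the opposite strand. Abca2, a lipid transporter, rose by 0.59 (adjusted p = 0.00105), with 88.5, 87.6 and 103 CPM in high glucose and 58.8, 61.0 and 65.7 CPM in control. Scarb2, a lysosomal membrane receptor, had 97.9, 103 and 110 CPM in high glucose and 91.0, 87.7 and 82.7 CPM in control (log2 fold change 0.25, adjusted p = 0.0228). The call for Scarb2 was lost with the replicate block and without control library 2 or 3 or high glucose library 2 or 3 (adjusted p up to 0.0858).

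**Figure D3:**
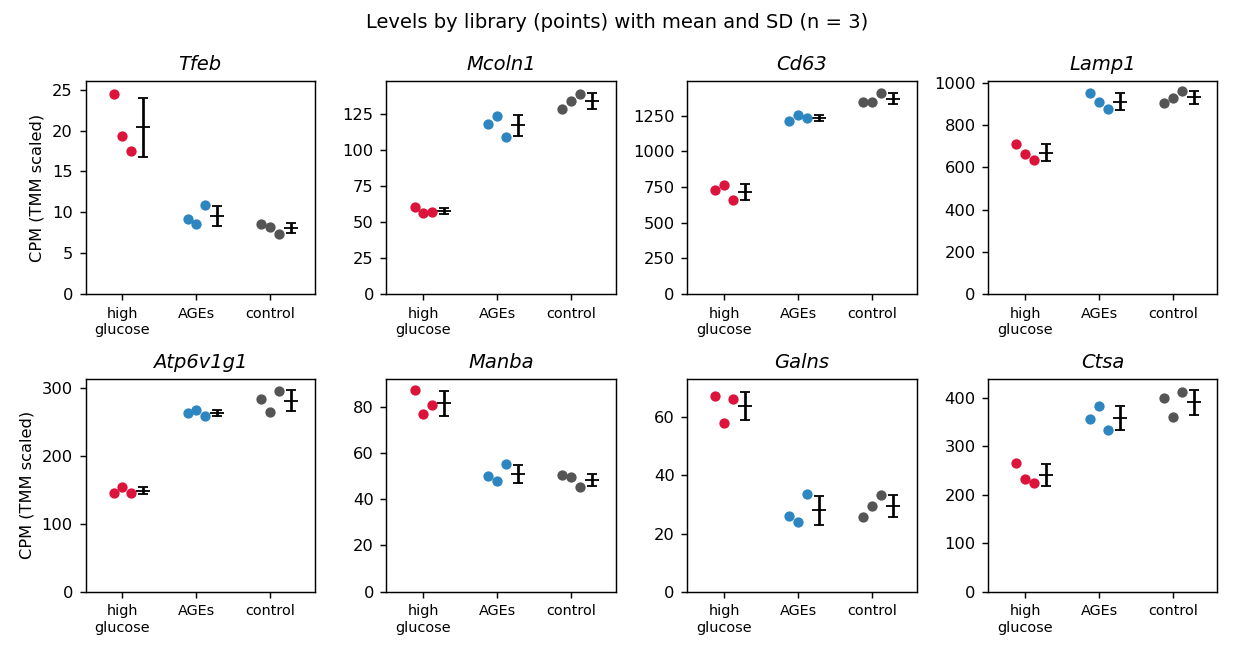
CPM in each library for 8 lysosomal genes, with mean and SD (n = 3) to the right of each group; groups run from high glucose through AGEs to control. Tfeb, Manba and Galns are higher in the 3 high glucose libraries than in all others, and Mcoln1, Cd63, Lamp1, Atp6v1g1 and Ctsa are lower.

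In the sorting machinery 7 of 30 genes were higher and 6 lower, around a median of −0.098. The enzyme that adds the mannose 6-phosphate tag has its 2 genes moving in opposite directions: Gnptab, which encodes the catalytic subunits, had 29.7, 31.2 and 33.6 CPM in high glucose, against 14.4, 21.8 and 18.7 CPM in control (log2 fold change 0.78, SE 0.14, adjusted p = 0.00205). Gnptg, its γ subunit, had 24.5, 20.8 and 19.4 CPM in high glucose, against 33.3, 32.1 and 35.5 CPM in control (log2 fold change −0.64, SE 0.11, adjusted p = 0.00118). Gnptg overlaps Unkl on the opposite strand over 49.5% of its exon bases, so reads of the 2 genes may be mixed. The receptors for the tag were not called: M6pr had 125 to 133 CPM in high glucose and 132 to 144 CPM in control, and Igf2r 48.2 to 62.8 CPM in high glucose and 63.5 to 72.0 CPM in control (adjusted p = 0.0843). Igf2r did pass as lower under an alternative setting (lowest adjusted p over the settings 0.022).

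Among the AP-1 adaptor genes, which form the coat for Golgi to endosome transport, the γ2 subunit Ap1g2 had 39.1, 37.4 and 34.8 CPM in high glucose, against 74.4, 82.0 and 82.8 CPM in control (log2 fold change −1.10, SE 0.10, adjusted p = 3.75e-05). The related Ap1g1, the γ1 subunit, was higher, with 121, 120 and 128 CPM in high glucose and 93.1, 90.1 and 84.8 CPM in control (log2 fold change 0.46, adjusted p = 0.0012). Ap1g2 overlaps Thtpa on the opposite strand over 9.88% of its exon bases. Ap1s1, the small σ1 subunit, rose by 0.64, with 165, 176 and 160 CPM in high glucose and 109, 96.9 and 117 CPM in control. Gga2, a monomeric adaptor for the mannose 6-phosphate receptors, fell by 0.88, with 43.2, 54.8 and 58.0 CPM in high glucose and 101, 102 and 84.2 CPM in control. Ap3d1 of the AP-3 complex rose by 0.73 and Ap4e1 of AP-4 by 0.71, and the call for Ap4e1 was lost without control library 1 or 3 or high glucose library 3 (adjusted p up to 0.0759).

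Of the transcription factors only Tfeb was called. Tfeb (chromosome 17, 47737030 to 47792419, plus strand) had 24.4, 19.3 and 17.5 CPM in high glucose, against 8.54, 8.18 and 7.34 CPM in control. It was 2.54-fold higher (log2 fold change 1.35, SE 0.16, adjusted p = 0.000151), and every high glucose library was above every other library. By FPKM the more abundant factor was Tfe3, at 6.05 in high glucose and 5.16 in control while Tfeb was at 3.50 in high glucose and 1.22 in control. Tfe3 had 58.1, 57.8 and 56.2 CPM in high glucose and 54.7, 51.5 and 59.7 CPM in control (log2 fold change 0.053, adjusted p = 0.751). Mitf was low, at 1.58 to 2.68 CPM in high glucose and 1.04 to 3.62 CPM in control. RNA levels do not show where these proteins lay in the cell or whether they were phosphorylated.

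Promoters were searched for the motif these factors bind. RefSeq windows from 250 bases before to 50 bases after the gene start (GRCm38.p6) matched 109 of the 137 genes by symbol. The core TCACGTGA, a palindrome and so the same on both strands, was in 12 of 109 genes (11.0%), against 1.12% of 27025 genes with such windows. The shorter E-box CACGTG, which lies inside it, was in 26 (23.9%), against 8.09% of all, and the full CLEAR palindrome, which extends the core at both ends, was in Cln3 and Igf2r (1.83%), against 0.37%. Of the 12 genes with TCACGTGA, 6 fell in high glucose, 2 rose and 4 were not called. Of the 85 tested genes without it, 21 fell and 20 rose. A match is a description of the letters and not evidence of binding. The 250 bases before the RefSeq start of Mcoln1 are shown because it fell with the smallest p, followed by 30 bases around the motif in the other genes that fell, in the 2 that rose and in Cln3, which holds the longer motif. The core is in capitals, 5′ to 3′ on the strand of the gene.
Mcoln1, chr8:3500269-3500518, plus strand: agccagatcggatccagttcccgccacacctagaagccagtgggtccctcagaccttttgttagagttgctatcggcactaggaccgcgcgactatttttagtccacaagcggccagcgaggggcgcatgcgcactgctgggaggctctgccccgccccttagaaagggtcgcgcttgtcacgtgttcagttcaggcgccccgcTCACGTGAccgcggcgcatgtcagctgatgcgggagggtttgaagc
Ctsa, chr2:164833749-164833778, plus strand: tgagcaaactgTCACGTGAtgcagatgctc
Ctsa, chr2:164833766-164833795, plus strand: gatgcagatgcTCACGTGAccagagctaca
Gnptg, chr17:25240120-25240149, minus strand: ccggctgtcacTCACGTGAccgtgagaccc
Atp6v1a, chr16:44139373-44139402, minus strand: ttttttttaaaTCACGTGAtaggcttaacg
Atp6v0d1, chr8:105566050-105566079, minus strand: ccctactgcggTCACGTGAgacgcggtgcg
Sumf1, chr6:108185577-108185606, minus strand: agcaccacaggTCACGTGAtctccatgggt
Cd164, chr10:41519401-41519430, plus strand: cgccgggctgcTCACGTGAccggcgcgcgc
Gla, chrX:134601215-134601244, minus strand: taagcgattgaTCACGTGAgcatctacgtc
Gla, chrX:134601182-134601211, minus strand: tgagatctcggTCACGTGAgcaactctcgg
Cln3, chr7:126583340-126583369, minus strand: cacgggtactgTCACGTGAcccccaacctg

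The motif sat in different places. Distances are from the RefSeq start of the window that holds the motif, which need not be the start of the gene in the deposited table. In Mcoln1 the RefSeq start, at 3500519, lies 62 bases inside the deposited gene, so the motif there is also inside it. The RefSeq start lay 13165 bases inside the deposited gene in Atp6v0e, 2581 in Cln3, 900 in Ctsa and 446 in Atp6v1a. The motif began 46 bases before the RefSeq start in Mcoln1, 22 before 1 of 2 starts in Gnptg, 12 in Sumf1 and 4 in Atp6v0d1, and 132 bases before it in Atp6v1a. Ctsa had 2 copies, 13 bases before and 4 bases after the start. In Gla, which rose, 2 copies lay 228 and 195 bases before it, and in Cd164, a sialomucin that rose by 0.22, 1 copy lay 88 bases before it. The 4 genes that carried the core and were not called were Atp6v0e, Cln3, Ctsd and Igf2r.

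**Figure D4:**
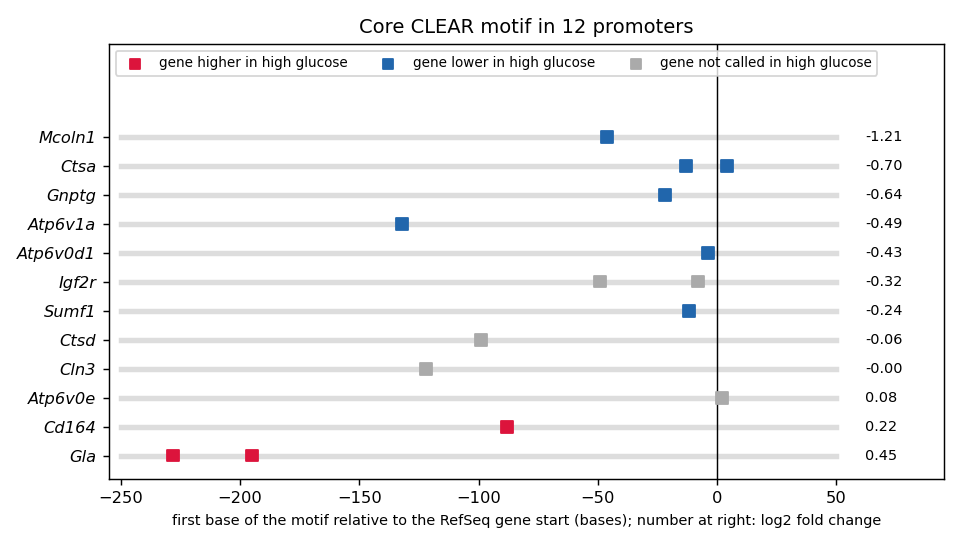
Position of the core motif TCACGTGA in the 12 lysosomal promoters that hold it, in bases from the RefSeq gene start; grey bars are the windows searched, squares the motif copies coloured by the call in high glucose, and the number at the right is the log2 fold change. The genes that fell (Mcoln1 to Atp6v0d1, and Sumf1) and those that rose (Cd164 and Gla) both carry it.

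Genes that act on the lysosome from outside the selection were counted from lists. Of 23 tested genes of mTORC1 signalling and TFEB control 3 rose and 9 fell (13% and 39.1%, against 19.6% and 19.7% of all genes). With limma on FPKM 3 or 4 were higher and 6 or 7 lower. Rragc, a Rag GTPase that brings mTORC1 to the lysosome, had 90.2, 81.2 and 83.5 CPM in high glucose, against 183, 189 and 177 CPM in control (log2 fold change −1.11, adjusted p = 6.17e-06). Tsc1, a brake on mTORC1, fell by 0.84, Lamtor1, the anchor of the Rag GTPases, by 0.61, and Fnip1, a partner of folliculin, by 1.06 on the log2 scale. The 3 that rose, named after their values were seen, were Mtor, Rptor and Ppp3ca, by 0.36, 0.59 and 0.87. Of 26 genes of lysosomal fusion and positioning 5 rose and 9 fell (19.2% and 34.6%). The tethering subunits Vps16, Vps11 and Vps39 were at −1.01, −0.74 and −0.91 and Vac14, a scaffold for the lipid kinase of endosomes, at −0.69. Other genes of this list are named after their values were seen. The tethering subunit Vps33a fell by 0.25, and Vps18 and Vps41, at 0.011 and −0.077, were not called. The 5 that rose were Rilp, Vamp8, Bloc1s1, Vti1b and Borcs8, by 1.73, 0.51, 0.48, 0.47 and 0.39. With limma on log2(FPKM + 1) this list had 9 higher and 6 lower (34.6% and 23.1%, against 29.6% and 14.2% of all genes on that scale), and 7 of each without a filter on low values.

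A further list held luminal and membrane proteins of the lysosome that the authors' table does not annotate with the pathway. Of 35 tested, 2 rose and 17 fell (5.71% and 48.6%, against 19.6% and 19.7% of all genes). With limma on FPKM 4 rose and 12 or 13 fell. On log2(FPKM + 1) the shares were 11.8% and 38.2%, against 29.6% and 14.2% of all genes. Dpp7, a dipeptidyl peptidase, had 18.0, 17.9 and 19.9 CPM in high glucose, against 67.6, 67.1 and 73.7 CPM in control (log2 fold change −1.90, adjusted p = 4.76e-06). The carboxypeptidase Scpep1 had 387, 378 and 356 CPM in high glucose, against 765, 744 and 778 CPM in control (log2 fold change −1.03). The cobalamin transporter component Lmbrd1 fell by 0.91 and the chloride-proton exchanger Clcn7, which supports acidification, by 0.97. The 2 that rose, named after their values were seen, were Tpcn1 and Ifi30, by 1.15 and 0.68.

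The second comparison asked whether AGEs changed the same genes. No lysosomal gene was called against control by edgeR, where 0.0848% of all genes tested were called (0.0509% higher and 0.0339% lower), and 20 of the 123 (16.3%) had an unadjusted p under 0.05, against 12.4% of all genes. Without AGEs library 3 the count was again 0, with 14 (11.4%) at an unadjusted p under 0.05, against 10.5% of all genes. DESeq2, which called 1.11% of all genes higher and 0.73% lower, called 1, Atp6v0a1. It had 80.5, 79.2 and 98.0 CPM in AGEs, against 62.2, 68.7 and 68.3 CPM in control (log2 fold change 0.37, adjusted p = 0.047 by DESeq2 and 0.262 by edgeR). This call rested on AGEs library 3: without it DESeq2 gave 0.26 (adjusted p = 0.18). In that fit, added after the data were seen, DESeq2 called 0.713% of all genes higher and 0.922% lower, among them Ctsl at 0.35 and Ctns at −0.33 (adjusted p = 0.0192 and 0.0374). CPM values were above control without overlap for 10 genes and below it for 22, or 8.1% and 17.9% of those tested, against 9.47% and 9.73% of all genes. Without AGEs library 3 these were 19 and 27 genes, or 15.4% and 22%, against 15.7% and 15.9% of all genes. The median log2 fold change was −0.053, beside −0.0047 for all genes, and −0.022 beside −0.0043 without that library.

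By role the AGEs medians were −0.056 for hydrolases, −0.10 for membrane proteins and −0.067 for the pump, and without AGEs library 3 they were −0.038, −0.023 and −0.038. The 8 V1 subunits lay between −0.19 and 0.046 on the log2 scale, or −0.18 and 0.073 without that library, and none was called. Mcoln1 had 118, 124 and 109 CPM in AGEs, against 128, 134 and 139 CPM in control, a difference without overlap that did not pass (log2 fold change −0.19, adjusted p = 0.358). Cd63 had 1214, 1254 and 1233 CPM in AGEs, against 1347, 1345 and 1411 CPM in control, again without overlap (log2 fold change −0.15, adjusted p = 0.401). Tfeb had 9.20, 8.52 and 10.9 CPM in AGEs and 8.54, 8.18 and 7.34 CPM in control (log2 fold change 0.25, adjusted p = 0.545). Without AGEs library 3 the log2 fold changes were −0.15 for Mcoln1, −0.15 for Cd63 and 0.14 for Tfeb (adjusted p = 0.512, 0.512 and 0.773). AGEs library 3 was low for several membrane proteins, with 9.51 CPM of Cd68 beside 18.1 and 20.4 CPM in the other AGEs libraries, and 0.626 CPM of the peptide transporter Abcb9 beside 2.37 and 2.65 CPM. Abcb9 was chosen after its values were seen.

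The third comparison set AGEs against high glucose. It shares the high glucose libraries with the first, so it is no independent count. In AGEs 35 of the 123 genes were higher and 26 lower (28.5% and 21.1%, against 19.7% and 20.2% of all genes, 39.9% either way), and 51 of the genes called here had also been called in high glucose against control. Under limma, fitted to log2(FPKM + 1), 22 were higher and 36 lower (13.7% and 31.1% of all genes), which is 37.9% higher among those called against 57.4% by edgeR. Without AGEs library 3, edgeR called 35 higher and 25 lower, against 18.4% and 19% of all genes.

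All 8 expressed V1 subunits were higher in AGEs than in high glucose, from 0.28 for Atp6v1b2 and Atp6v1f to 0.82 for Atp6v1g1 and Atp6v1c1 on the log2 scale. On the FPKM scale the calls for Atp6v1b2, Atp6v1e1 and Atp6v1f were lost (adjusted p up to 0.323, 0.385 and 0.458), and those for Atp6v1e1 and Atp6v1f also without high glucose library 3 or AGEs library 2, that for Atp6v1e1 also without AGEs library 1. Mcoln1 was higher by 1.02 (adjusted p = 9.78e-06) and Cd63 by 0.79. Galns was lower in AGEs than in high glucose by 1.19 on the log2 scale, Tfeb by 1.10 and Gm2a by 0.99. Ctsl, which had 796, 929 and 729 CPM in AGEs and 545, 491 and 516 CPM in high glucose, was higher by 0.66 (adjusted p = 0.00034). Without AGEs library 3 all 8 V1 subunits were again called higher, by 0.26 to 0.86. In that fit Mcoln1 was at 1.07, Cd63 at 0.79, Galns at −1.35, Tfeb at −1.20, Gm2a at −0.95 and Ctsl at 0.74, each called by edgeR.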

How the data were processed

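Per the file headers, the authors deposited whole-number counts per gene and FPKM values (fragments per unit of transcript length and sequencing depth), with a count of 0 written as 0.0001 FPKM. Cutadapt 1.9, FastQC and GRCm38 are named in the submitters' processing notes. For the aligner, counter, annotation and strand no entry is given in the sources used here, so reads of overlapping genes may be mixed. By GENCODE M21, 51 of the 137 genes share exon bases with another gene.

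Counts were fitted with edgeR 4.0.16 in R 4.3.3 (filterByExpr, TMM, quasi-likelihood, 9 libraries in 1 fit, two-sided, Benjamini-Hochberg over 17680 genes, called under 0.05). TMM factors were 0.935 to 1.10, all 3 high glucose libraries having the highest, and the common coefficient of variation was 0.278. CPM uses these factors. Alternatives used limma 3.58.1 on FPKM and DESeq2 1.42.0. The procedure was run on simulated counts with a lower spread than here and changes of at least 2-fold. It therefore does not show how smaller changes are recovered in these data.

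Genes and lists were chosen with earlier results of these data known, so no test over a list is given. Named genes were a set list of well-known lysosomal genes and every pump subunit, the 10 largest called rises and falls with at least 1 FPKM in a group, and up to 4 of smallest p in each role. In the other comparisons up to 20 called genes of smallest p could be named, and in each further list 4. Some genes that the rule names are not reported here. Neu1, on the set list, is not annotated with the pathway in the deposited table and was not analysed here.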

Additional observations from a re-analysis of the deposited data

How the results depend on the processing

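Under 18 alternative settings (library factors, filters, tool, fitted samples, replicate block, FPKM scale and each library left out) the 8 V1 subunits stayed lower in high glucose. The FPKM scale moved the counts most. There the genes higher in high glucose than control numbered 38 with either pseudocount, and those lower 24 without a filter on low values. Genes higher in AGEs than high glucose numbered 22 and 21 with pseudocounts of 1 and 0.1, and 19 without a filter. The medians in high glucose in those 3 fits were 0.12, 0.19 and 0.10 for hydrolases, −0.23, −0.23 and −0.23 for the pump and 0.065, 0.068 and 0.048 for sorting genes, and 0.18 for membrane proteins with a pseudocount of 0.1. A mean of at least 1 CPM gave −0.078 for sorting genes. Leaving out 1 library gave medians of −0.080 to 0.11 for membrane proteins, the lowest without high glucose library 1, and −0.14 to −0.073 for sorting genes. DESeq2 called 1 gene in AGEs against control, in place of 0, and 2 others without AGEs library 3, a fit added after the data were seen. Every edgeR fit that left out 1 library called 0. The cause was not tested.

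Some named genes changed sign, none of them called in the main fit. Of these only Ctsb passed under an alternative (lowest adjusted p over the settings 0.016, log2 fold change up to 0.18). When 1 library was left out, Atp6v0c ranged from −0.37 to 0.016 (highest without control library 3), Atp6v1g2 from −0.048 to 0.90 (lowest without control library 1), Ctsb from −0.016 to 0.035 (below 0 without control library 2 or high glucose library 1 or 2), Ctsd from −0.11 to 0.011 (highest without high glucose library 3) and Mitf from −0.53 to 0.25 (above 0 without control library 2 or high glucose library 2). On the FPKM scale Ctsd was at 0.12, 0.12 and 0.12, M6pr at 0.084, 0.087 and 0.084 and Mitf at 0.0051, 0.072 and 0.0051. With the replicate block Mitf was at 0.027.

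Same-numbered libraries of different groups did not deviate together (r from −0.067 to 0.084), so the numbers were not taken as pairs. With the replicate block 22 genes were higher and 36 lower in high glucose (58 called, against 62).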

Other observations

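Several lysosomal genes known from leukocytes were low and varied between libraries of the same group. The protease Ctss had 0.229, 0.670 and 0.290 CPM in high glucose, 0.948, 0.435 and 0.0437 CPM in AGEs and 0.236, 0.160 and 0.251 CPM in control. Laptm5, a lysosomal membrane protein of blood cells, had 0.193, 1.06 and 0.139 CPM in high glucose, 0.963, 0.855 and 0 CPM in AGEs and 0, 0.0581 and 0.687 CPM in control. The macrophage enzyme Lyz2 had 2.01, 6.88 and 2.19 CPM in high glucose, 3.06, 5.16 and 0 CPM in AGEs and 0.314, 0.392 and 2.33 CPM in control. AGEs library 3 thus had 0 counts of Laptm5, Lyz2 and Hexa. The log2 fold change of Lyz2 was 1.87 in high glucose and 1.44 in AGEs, each over control, and neither was called. These genes were picked with their values in view, and their spread within groups was not tested.

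A few expressed lysosomal genes varied nearly 2-fold or more within a group. Tpp1, a tripeptidyl peptidase, had 62.3, 55.0 and 84.7 CPM in high glucose, 143, 78.5 and 75.0 CPM in AGEs and 86.8, 140 and 74.6 CPM in control. Nagpa, which uncovers the mannose 6-phosphate tag, had 12.5, 18.2 and 12.9 CPM in high glucose, 12.9, 33.5 and 17.9 CPM in AGEs and 14.9, 33.5 and 16.5 CPM in control. Sgsh, a heparan sulfatase, had 11.3 CPM in control library 2 and 27.4 to 36.7 CPM in the other 8 libraries. They too were chosen after their values were seen.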
